A study of Mus musculus with 8 samples.

Results

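Metalloproteinases and their inhibitors were examined in kidney RNA of mice after injury with aristolochic acid, a toxin of Aristolochia plants that damages the proximal tubule. The members were the protein-coding genes whose symbol is Mmp, Adam, Adamts or Timp followed by a number, with at least 10 counts in total over the 8 libraries. Of 71 such symbols, 58 met the minimum, out of 42256 genes in the count table. They comprised 20 Mmp, 16 Adam, 18 Adamts and 4 Timp genes. Just inside the minimum stood Adamts13 with 13 counts and Timp4 with 14, and just outside it Adam3 with 8 and Adamts19 with 6. Of 7 further symbols that carry a letter after the number, 3 had at least 10 counts, and none of these was taken as a member.

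Each library came from 1 frozen kidney sample of an adult male mouse on a mixed background of 129S1/Sv and C57BL/6. 4 libraries are labelled CDH11-/-, without functional copies of the gene for cadherin-11, an adhesion molecule of mesenchymal cells, and 4 are labelled CDH11+/+. Both genotypes received aristolochic acid at 3 mg/kg daily for 5 days, and kidneys were taken 2 weeks after the last dose, so no uninjured kidney enters any comparison. Unx/AngII, the injury named in the title of the series, does not appear in the sample labels, which are followed here. How the allele was made is not described here.

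Matrix metalloproteinases (Mmp) are zinc-dependent enzymes that are made as inactive precursors and, once activated, cleave collagens, other matrix proteins and cell surface molecules. Adam proteins are membrane-anchored relatives, several of which shed growth factors, cytokines and adhesion molecules from the cell surface, while Adamts enzymes are secreted and process procollagens, proteoglycans and fibrillin-rich fibres. The tissue inhibitors of metalloproteinases (Timp) bind the active sites of these enzymes, and in the injured kidney the balance between proteinases and inhibitors is studied as part of fibrosis and matrix turnover.

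The promoter of Mmp7, the only member to pass the test described below, is shown with the AP-1 motif that recurs among its neighbours. Mmp7 lies at the end of a cluster of 9 Mmp genes on chromosome 9 that spans 0.427 Mb (chr9:7272514-7699585, mm10), of which Mmp1b had 0 counts and the other 8 are members. The 250 bases before the start of the gene (RefSeq, GRCm38.p6, chr9:7691840-7692089, plus strand, 5′ to 3′) read as follows, with an ETS core (CTTCCT, the reverse complement of AGGAAG) and an AP-1 motif (TGANTCA) in capitals.
Mmp7: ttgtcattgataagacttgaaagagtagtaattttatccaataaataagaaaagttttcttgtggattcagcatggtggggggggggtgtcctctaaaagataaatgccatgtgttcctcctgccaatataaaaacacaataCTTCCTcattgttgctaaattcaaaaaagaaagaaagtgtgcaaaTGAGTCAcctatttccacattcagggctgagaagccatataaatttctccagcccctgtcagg

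The AP-1 motif, associated with Fos and Jun factors and searched as TGANTCA (N, any base), begins 63 bases before the start in Mmp7. Of the 8 cluster members, 6 had TGANTCA in the 250 bases before the start and Mmp8 and Mmp27 had none. Mmp20 matched with A at N, and the other matches of the cluster had G or C there. Starts here are those of RefSeq, and that of Mmp12 lies inside the gene as the annotation used for positions places it (chr9:7344381-7369499). The 40 bases around the motif in those 6 genes are shown so that the surrounding letters can be compared, each on the plus strand of chromosome 9 with the AP-1 letters in capitals.
Mmp13 (chr9:7272463-7272502): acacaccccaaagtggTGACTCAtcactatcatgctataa
Mmp12 (chr9:7347314-7347353): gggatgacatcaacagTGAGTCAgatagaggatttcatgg
Mmp3 (chr9:7445760-7445799): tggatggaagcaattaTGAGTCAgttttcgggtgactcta
Mmp10 (chr9:7502263-7502302): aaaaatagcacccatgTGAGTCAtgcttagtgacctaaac
Mmp20 (chr9:7628120-7628159): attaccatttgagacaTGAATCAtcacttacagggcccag
Mmp7 (chr9:7692011-7692050): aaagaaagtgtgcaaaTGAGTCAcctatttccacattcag

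Across the members, 37 of 58 had an entry in the promoter table, with 42 windows of 250 bases before a start. TGANTCA, which reads the same on both strands, occurred in 7 of the 42 windows (16.7%) against 6.75% of 32851 mouse promoters of the same length, the seventh being that of Adam19. AGGAAG on either strand occurred in 15 of the 42 windows (35.7%) against 29.5% of all promoters. The TCF/LEF letters ATCAAAG or their reverse complement CTTTGAT occurred in 1 member window, the second one listed for Mmp7, which lies inside the transcript, and in 3.21% of all promoters. A match of letters is a description of the sequence, and no binding was measured.

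The libraries held 12966177 to 18539479 counts when labelled CDH11-/- and 10675309 to 13885009 when labelled CDH11+/+. Cdh11 itself (chr8:102632095-102785642, mm10) was measured at 89.9, 91.3, 113 and 117 CPM (reads assigned to the gene, relative to library size after TMM scaling) in libraries labelled CDH11-/-, against 75.6, 58.0, 61.7 and 59.0 CPM in libraries labelled CDH11+/+, so its RNA was not lower under the knockout label. edgeR called it higher (log2 fold change 0.69 ± 0.11, adjusted p = 0.0249), as did DESeq2 (adjusted p = 5.39e-06) and limma-voom with quality weights (0.0053). In the authors' normalized values the labels overlapped, and limma gave 0.26 (adjusted p = 0.524). Counts per gene do not show which exons were read, and genotypes are therefore given as labelled throughout. In a principal component analysis of all tested genes, the first component (33.4% of the variance) separated the labels, while on the second (22.6%) CDH11+/+ replicate 1 stood at 41.0 and the other 7 libraries between −26.1 and 9.92. Calls that depend on this library are given with and without it. No marker of the 10 cell types listed for the kidney was at 0 in all libraries.

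The 58 members held 0.256% to 0.288% of all counts in libraries labelled CDH11-/- and 0.239% to 0.279% in libraries labelled CDH11+/+. Expression levels between genes were compared as CPM per kilobase of exon. On that scale the Timp genes summed to 204 to 233 in libraries labelled CDH11-/- and 183 to 228 in libraries labelled CDH11+/+. The Mmp genes summed to 83.8 to 108 in libraries labelled CDH11-/- and 76.0 to 108 in libraries labelled CDH11+/+. For the Adam genes the sums were 123 to 132 (CDH11-/-) and 114 to 129 (CDH11+/+), and for the Adamts genes 65.0 to 74.0 (CDH11-/-) and 66.5 to 72.2 (CDH11+/+). The ranges overlapped in all 4 families.

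By mean level per kilobase over all 8 libraries, Timp3 stood first with 110.6 ± 5.65 CPM per kilobase in libraries labelled CDH11-/- and 109.6 ± 6.99 in libraries labelled CDH11+/+ (SD, n = 4 each). Timp2 followed with 62.6 ± 4.89 CPM per kilobase (CDH11-/-) and 48.5 ± 4.24 (CDH11+/+), and Timp1 with 45.7 ± 12.7 (CDH11-/-) and 41.4 ± 16.1 (CDH11+/+). Within each genotype the intervals of 1 SD around Timp2 and Timp1 overlapped. Adamts1 was the highest proteinase under both labels, at 39.2 ± 3.16 CPM per kilobase in libraries labelled CDH11-/- and 41.7 ± 1.31 in libraries labelled CDH11+/+. Behind it stood Adam10, at 28.7 ± 1.73 CPM per kilobase (CDH11-/-) and 29.0 ± 1.26 (CDH11+/+), and Adam9, at 29.4 ± 1.88 (CDH11-/-) and 26.8 ± 2.33 (CDH11+/+). Mmp2, at 32.4 ± 2.90 CPM per kilobase (CDH11-/-) and 22.5 ± 4.05 (CDH11+/+), stood above both in libraries labelled CDH11-/- and below both in libraries labelled CDH11+/+. Mmp7 ranked 14 of 58 over all 8 libraries, with 3.90 ± 1.53 CPM per kilobase in libraries labelled CDH11-/- and 9.84 ± 1.62 in libraries labelled CDH11+/+.

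**Figure D1:**
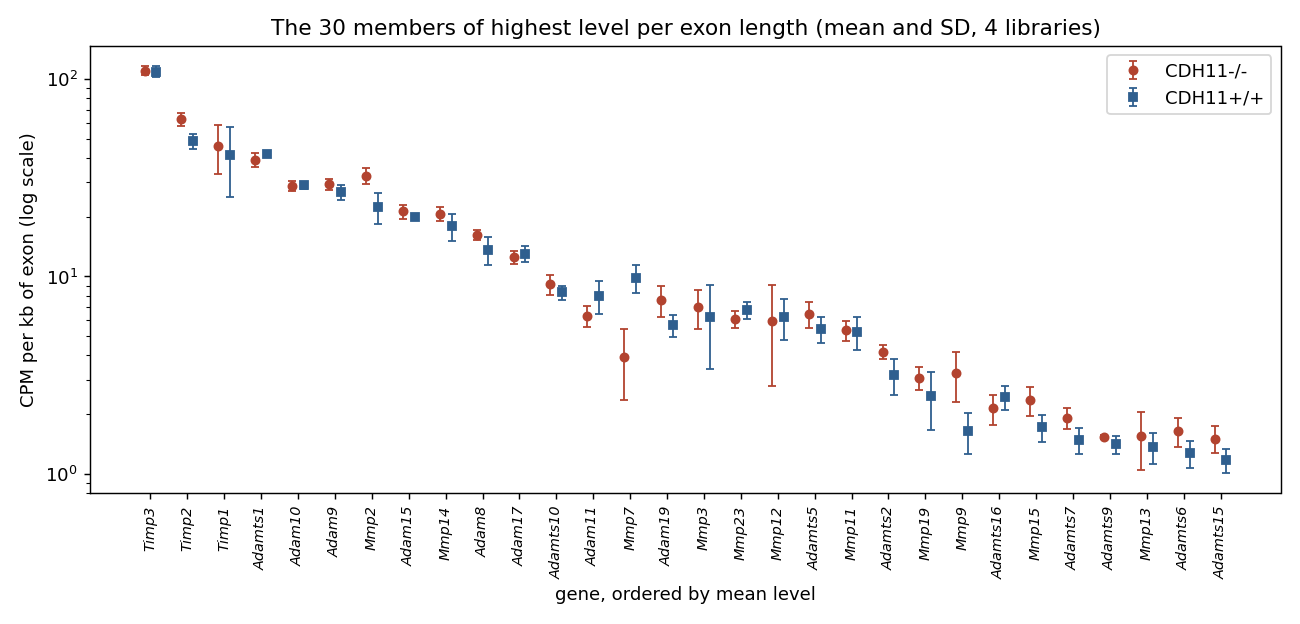
Mean level of the 30 highest members in CPM per kilobase of exon (log axis), with bars of 1 SD over 4 libraries for CDH11-/- and CDH11+/+ as labelled. Timp3 and Timp2 take the first places under both labels, and Timp1 stands above Adamts1 in CDH11-/- libraries but just below it in CDH11+/+ libraries (41.4 and 41.7).

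Genotypes were compared for all 15852 genes with enough counts by edgeR's quasi-likelihood test with Benjamini-Hochberg adjustment over all of them, and a gene was called when its adjusted p was under 0.05. Of the 58 members, 43 were tested and 15 had too few counts, with totals of 13 to 91. 1 of the 43 was called (2.33%), the lower Mmp7, where 115 of all genes tested (0.725%) were called, 57 higher (0.36%) and 58 lower (0.366%). Log2 fold changes of the members were above 0 for 32 and below 0 for 11, with a median of 0.18, and 25 lay within 0.25 of 0. Over all genes tested, 47.6% were above 0 and the median was −0.01. An unadjusted p under 0.05 was found for 14 members (32.6%), 12 higher and 2 lower, against 14.4% of all genes tested. p-values here weigh the difference between the labels against the spread among libraries of the same label.

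**Figure D2:**
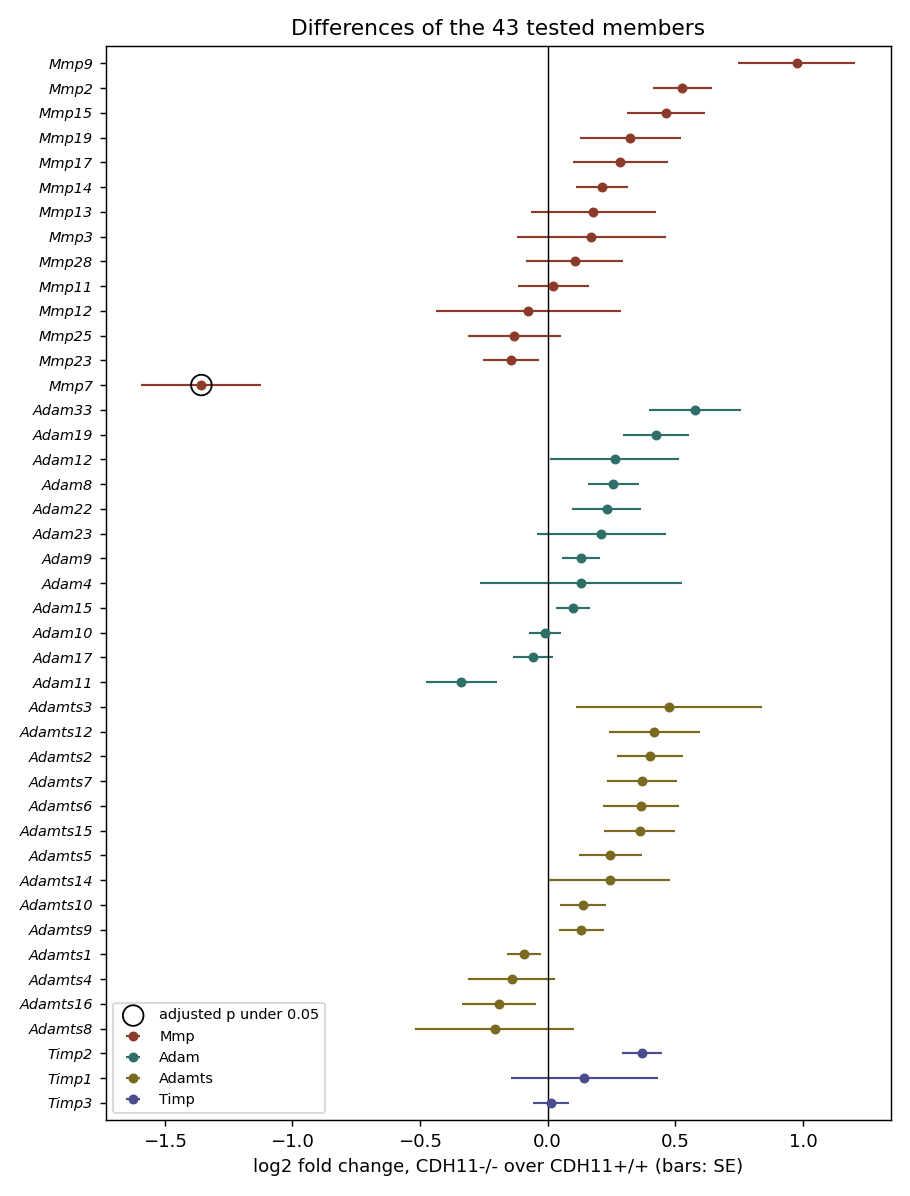
Log2 fold change of CDH11-/- over CDH11+/+ libraries, as labelled, with its standard error for the 43 tested members, grouped by family. 32 points lie above 0 and 11 below, and Mmp7 (circled, −1.36) is the member with an adjusted p under 0.05.

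Mmp7, matrilysin, is a small secreted proteinase made largely by epithelial cells, low in healthy kidney tubules and raised after injury. It was lower in libraries labelled CDH11-/-. The gene (ENSMUSG00000018623, chr9:7692090-7699585, plus strand) was measured at 2.89, 4.27, 3.06 and 6.44 CPM in libraries labelled CDH11-/-, against 12.5, 11.3, 8.78 and 9.41 CPM in libraries labelled CDH11+/+. All 4 values under the knockout label lay below all 4 of the other label, and CDH11-/- replicate 4 was the nearest to them. The log2 fold change was −1.36 ± 0.23 (SE; adjusted p = 0.031, edgeR quasi-likelihood), a level 0.391 times that of CDH11+/+. The means were 4.16 ± 1.64 CPM in libraries labelled CDH11-/- and 10.5 ± 1.73 CPM in libraries labelled CDH11+/+ (SD, n = 4 each), from 252 and 518 counts in all. In bulk tissue, fewer cells of a type and less RNA per cell cannot be told apart.

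Mmp7 kept its direction when each library was left out in turn, between −1.61 and −1.21 on the log2 scale, but the adjusted p ranged from 0.00746 to 0.0987 and lay above 0.05 in 5 of the 8 omissions. The call was lost without CDH11-/- replicate 1 (adjusted p = 0.0987), replicate 2 (0.0659) or replicate 3 (0.0899), and without CDH11+/+ replicate 2 (0.0887) or replicate 4 (0.0961). Without CDH11+/+ replicate 1 the value was −1.26 ± 0.24 (adjusted p = 0.0149, edgeR). In the authors' normalized values, Mmp7 stood at 40.2, 59.2, 43.4 and 88.6 in libraries labelled CDH11-/-, against 173, 156, 119.8 and 129.4 in libraries labelled CDH11+/+. There limma gave −1.36 with an adjusted p of 0.0515. An antisense gene, AV064505, overlaps 123 bases of the Mmp7 exons and had 0 counts in all libraries.

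Markers of proximal tubule cells were also lower in value under the knockout label. 14 of 14 proximal tubule markers had a log2 fold change below 0, with a median of −0.77, and 1 of them was called. Their summed level was 2685 to 7014 CPM in libraries labelled CDH11-/- and 3066 to 9211 CPM in libraries labelled CDH11+/+. Kap had the highest level among them, with 1495 ± 1231 CPM (CDH11-/-) and 2327 ± 1723 CPM (CDH11+/+; SD, n = 4 each). Slc34a1, Slc5a2, Slc5a12, Slc22a6, Slc22a8 and Slc13a3 were lower without overlap between the labels, as were 3.74% of all genes tested. The remaining proximal tubule markers overlapped. The 10 markers of injured tubule cells had 5 log2 fold changes above 0 and 5 below, with a median of −0.01. Their sums were 13827 to 14796 CPM in libraries labelled CDH11-/- and 15124 to 16991 CPM in libraries labelled CDH11+/+. Spp1 held most of these sums, with 10829 ± 279 CPM (CDH11-/-) and 12258 ± 428 CPM (CDH11+/+; SD, n = 4 each). All other markers of that list overlapped between the labels. The part of cell makeup in the Mmp7 difference was not tested.

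The genes whose level followed Mmp7 most closely over the 8 libraries were Arhgap36 (Pearson r = 0.975), Bnc2 (0.966) and Gnptab (0.963), chosen by that likeness among all genes tested. Their log2 fold changes were −1.15 (adjusted p = 0.0223, edgeR) for Arhgap36, −0.63 (adjusted p = 0.114) for Bnc2 and −0.12 (adjusted p = 0.345) for Gnptab. These correlations share the genotype difference and the libraries, and stand as a description.

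The neighbours of Mmp7 in the chromosome 9 cluster did not pass the test. Mmp3, stromelysin-1, had 13.3, 8.79, 12.7 and 15.5 CPM in libraries labelled CDH11-/-, against 18.6, 9.95, 6.96 and 9.41 CPM in libraries labelled CDH11+/+ (log2 fold change 0.17 ± 0.29, adjusted p = 0.836). Mmp12, the macrophage elastase, had 27.0, 33.3, 34.6 and 77.0 CPM in libraries labelled CDH11-/-, against 60.1, 42.4, 43.1 and 35.2 CPM in libraries labelled CDH11+/+ (−0.08 ± 0.36, adjusted p = 0.948). Both genes overlapped between the labels. CDH11-/- replicate 4 was far above the other CDH11-/- libraries for Mmp12. Mmp13, the main interstitial collagenase of the mouse, was between 2.84 and 5.76 CPM in libraries labelled CDH11-/- and between 3.04 and 4.55 CPM in libraries labelled CDH11+/+ (0.18 ± 0.24, adjusted p = 0.784). The remaining cluster members Mmp8, Mmp10, Mmp20 and Mmp27 had 21 to 91 counts in total and were not tested.

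The gelatinases Mmp2 and Mmp9, which cleave denatured collagen and type IV collagen, had the highest median log2 fold change among the groups of members by role, 0.75, but neither passed the threshold. Mmp2, gelatinase A, is made mainly by fibroblasts and other mesenchymal cells. It had 115, 95.03, 111 and 116 CPM in libraries labelled CDH11-/-, against 95.31, 64.1, 74.4 and 69.6 CPM in libraries labelled CDH11+/+. The labels overlapped narrowly, with CDH11-/- replicate 2 at 95.03 and CDH11+/+ replicate 1 at 95.31 CPM, while the other CDH11+/+ libraries lay lower. The log2 fold change was 0.53 ± 0.12 (adjusted p = 0.0761, edgeR). Without CDH11+/+ replicate 1 it was 0.67 ± 0.08 and passed (adjusted p = 0.0028), and DESeq2 (adjusted p = 0.0026) and limma-voom with quality weights (0.0104) also called it on all 8 libraries. DESeq2 called 4 members there, where it called 2.79% of all genes, and limma-voom called 5, where it called 4.32%.

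Mmp9, gelatinase B, is known from neutrophils and macrophages. It had 15.3, 8.02, 9.66 and 12.6 CPM in libraries labelled CDH11-/-, against 7.29, 4.71, 4.59 and 6.63 CPM in libraries labelled CDH11+/+. The labels did not overlap, which held for 6 of 43 members (13.95%), against 7.33% of all genes tested. These were 5 higher members, Mmp9, Adam33, Adamts6, Adamts7 and Timp2 (3.59% of all genes), and the lower Mmp7 (3.74% of all genes). In the authors' normalized values Mmp9, Adamts6, Adamts7 and Timp2 overlapped, and 3 higher members, Mmp2, Adam33 and Adamts2, did not, nor did Mmp7. The log2 fold change was 0.98 ± 0.23 (adjusted p = 0.0847, edgeR), a level 1.97 times that of CDH11+/+ libraries. Without CDH11+/+ replicate 1 it passed (1.10 ± 0.25, adjusted p = 0.0288), as it did on all 8 libraries in DESeq2 (adjusted p = 0.0047) and limma-voom (0.0495). The 11 macrophage and monocyte markers tested all had log2 fold changes above 0, with a median of 0.15, none called and sums of 4370 to 5600 CPM in libraries labelled CDH11-/- and 3708 to 5313 CPM in libraries labelled CDH11+/+. Among them Cd14 (0.96 ± 0.17, adjusted p = 0.0568, edgeR) and Ccr2 (0.85 ± 0.17, adjusted p = 0.0704) had values close to that of Mmp9, and neither overlapped between the labels. All other markers of that list overlapped, with values from 0.02 (Cd68) to 0.36 (Mrc1). Of 6 neutrophil markers 2 were tested. The sums of all 6 were 18.8 to 23.4 CPM in libraries labelled CDH11-/- and 18.4 to 27.9 CPM in libraries labelled CDH11+/+. Csf3r held most of these sums, with 19.2 ± 1.87 CPM (CDH11-/-) and 20.2 ± 4.15 CPM (CDH11+/+; SD, n = 4 each). The remaining neutrophil markers had only 4 to 82 counts each in total, so the sums say little about them. The part of these cells in the Mmp9 values was not tested.

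**Figure D3:**
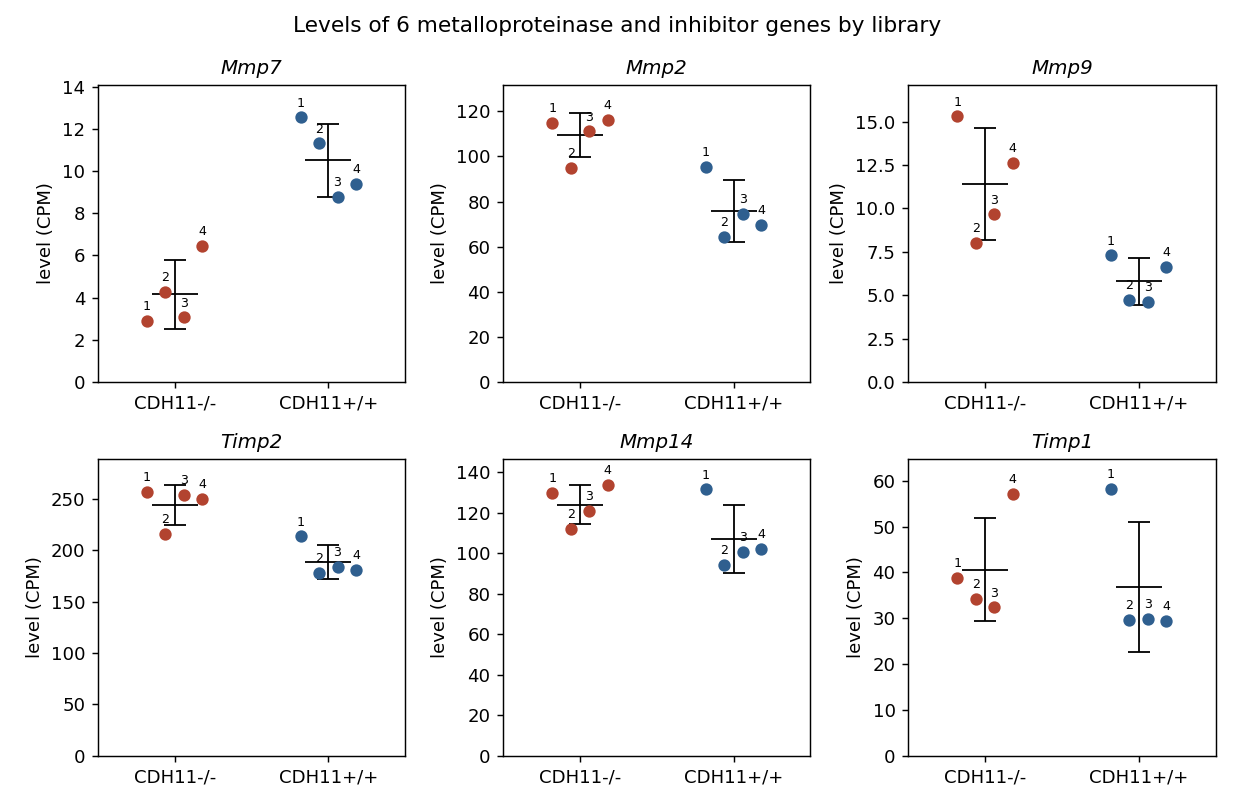
CPM of Mmp7, Mmp2, Mmp9, Timp2, Mmp14 and Timp1 in each library, numbered by replicate, with mean and SD for CDH11-/- and CDH11+/+ as labelled. Mmp7, Mmp9 and Timp2 do not overlap between the labels, and CDH11+/+ replicate 1 is the highest CDH11+/+ library in all 6 panels.

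The membrane-type enzymes sit on the cell surface, where Mmp14 activates the Mmp2 precursor together with Timp2. Mmp14 had 129.6, 112, 121 and 133 CPM in libraries labelled CDH11-/-, against 131, 94.2, 100.4 and 102 CPM in libraries labelled CDH11+/+. CDH11+/+ replicate 1 lay among the CDH11-/- values and the other 3 below them. The log2 fold change was 0.21 ± 0.10 (adjusted p = 0.369, edgeR) with all libraries and 0.34 ± 0.07 (adjusted p = 0.0232) without CDH11+/+ replicate 1. Mmp15, another membrane-type enzyme, had 14.7, 11.9, 14.1 and 10.1 CPM in libraries labelled CDH11-/-, against 10.7, 7.75, 8.39 and 10.2 CPM in libraries labelled CDH11+/+ (0.46 ± 0.15, adjusted p = 0.200). Mmp17 (0.29 ± 0.19) and Mmp25 (−0.13 ± 0.18) also did not pass, and Mmp16 and Mmp24, with 66 and 64 counts, were not tested.

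Mmp2 and Mmp15 lie on chromosome 8 with Cdh11, 9.78 and 7.26 Mb from it (Mmp2 at chr8:92827291-92853420, Mmp15 at chr8:95352268-95375080). Alleles of the parent strains that travel with a targeted locus and an effect of the knockout cannot be told apart in this design for genes placed so close to it. The remaining tested Mmp genes were Mmp11 (0.02 ± 0.14), Mmp19 (0.32 ± 0.20), Mmp23 (−0.15 ± 0.11) and Mmp28 (0.11 ± 0.19), none of which passed in any of the 17 alternative treatments of the data.

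Among the inhibitors, Timp2 stood nearest to the threshold. The gene, which encodes a secreted inhibitor that also assists Mmp2 activation, lies at chr11:118301069-118355740 on the minus strand. It had 257, 216, 254 and 249.9 CPM in libraries labelled CDH11-/-, against 213, 178, 184 and 181 CPM in libraries labelled CDH11+/+. The labels did not overlap, although CDH11-/- replicate 2, at 216 CPM, and CDH11+/+ replicate 1, at 213 CPM, lay close together. The log2 fold change was 0.37 ± 0.08 (adjusted p = 0.0628, edgeR). It passed without CDH11+/+ replicate 1 (0.44 ± 0.07, adjusted p = 0.0078), without CDH11-/- replicate 2 (0.42, adjusted p = 0.0473), and in DESeq2 (0.0021) and limma-voom (0.0132). In the authors' normalized values the labels overlapped and limma gave an adjusted p of 0.149.

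Timp1, an inhibitor induced in injured and fibrotic kidney, had 38.8, 34.3, 32.4 and 57.0 CPM in libraries labelled CDH11-/-, against 58.2, 29.6, 29.9 and 29.5 CPM in libraries labelled CDH11+/+. 1 library of each label stood high, at 57.0 and 58.2 CPM, and the other 6 lay between 29.5 and 38.8 CPM. The log2 fold change was 0.14 ± 0.29 (adjusted p = 0.864, edgeR), and 0.46 ± 0.19 (adjusted p = 0.220) without CDH11+/+ replicate 1. Those same libraries, CDH11-/- replicate 4 and CDH11+/+ replicate 1, had the lowest proximal tubule marker sums of their labels (2685 and 3066 CPM) and the highest macrophage marker sums (5600 and 5313 CPM). They were also the highest of their labels for Mmp3 and Mmp12. The part of the cell makeup in these values was not tested.

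Timp3, which binds to the matrix and also inhibits Adam17 and several Adamts enzymes, had 893, 893, 964 and 853 CPM in libraries labelled CDH11-/-, against 878, 971, 836 and 885 CPM in libraries labelled CDH11+/+. The values overlapped fully, and the log2 fold change was 0.01 ± 0.07 (adjusted p = 0.953, edgeR). This gene alone held 30.3% to 34.5% of the members' counts in libraries labelled CDH11-/- and 31.9% to 38.3% in libraries labelled CDH11+/+. Its exons overlap those of Syn3, for which the table holds 250 counts in all. Timp4 had 14 counts, 10 in libraries labelled CDH11-/- and 4 in libraries labelled CDH11+/+, and was not tested.

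**Figure D4:**
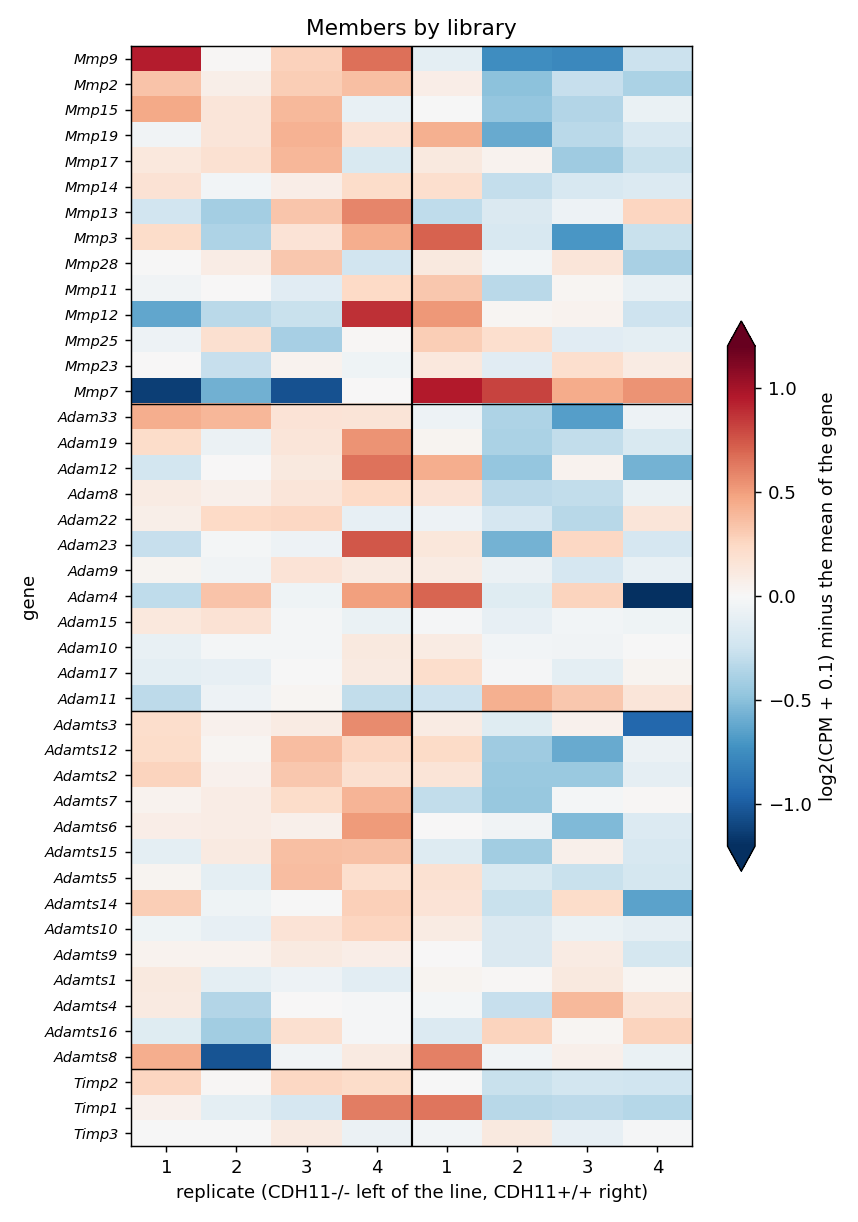
Level of each tested member in each library on a log2 CPM scale, minus the mean of the gene over 8 libraries, with CDH11-/- libraries left of CDH11+/+ libraries as labelled. The Mmp7 row is lower in all 4 CDH11-/- libraries, and Timp1 and Mmp12 are high in 1 library of each label. Mmp3 is highest in CDH11+/+ replicate 1.

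None of the 12 tested Adam genes passed in edgeR, DESeq2 or limma-voom on all libraries. In edgeR, 4 had an unadjusted p under 0.05 (33.3%), against 14.4% of all genes tested. A log2 fold change above 0 was found for 9, with a median of 0.17. The broadly expressed sheddases differed least. Adam10, the alpha-secretase that sheds Notch and cadherins, had 133, 139, 139 and 153 CPM in libraries labelled CDH11-/-, against 151, 139, 138 and 142 CPM in libraries labelled CDH11+/+ (−0.01 ± 0.06, adjusted p = 0.956). Adam17, the enzyme that releases tumour necrosis factor and ligands of the EGF receptor, had 84.0, 85.3, 90.8 and 98.5 CPM in libraries labelled CDH11-/-, against 105, 90.3, 84.2 and 93.5 CPM in libraries labelled CDH11+/+ (−0.06 ± 0.08, adjusted p = 0.786). Both genes overlapped fully between the labels. Adam9 (0.13 ± 0.07, adjusted p = 0.451), another widely expressed membrane proteinase, and Adam15 (0.10 ± 0.07, adjusted p = 0.531), which carries an integrin-binding motif, also lay near 0. The exons of Adam17 overlap those of Iah1 over 311 bases.

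Adam19 and Adam33 had the largest log2 fold changes among the Adam genes. Adam19, meltrin beta, had 54.0, 44.2, 51.1 and 67.2 CPM in libraries labelled CDH11-/-, against 47.5, 35.5, 37.7 and 40.7 CPM in libraries labelled CDH11+/+. CDH11-/- replicate 2 lay below CDH11+/+ replicate 1, and the fold change was 0.42 ± 0.13 (adjusted p = 0.184, edgeR), or 0.52 ± 0.13 (adjusted p = 0.0414) without CDH11+/+ replicate 1. Its exons overlap those of Gm16033 and Gm16034, so reads there could belong to either. Adam33, a gene of smooth muscle cells and fibroblasts, had 5.37, 5.24, 4.43 and 4.39 CPM in libraries labelled CDH11-/-, against 3.78, 3.04, 2.45 and 3.78 CPM in libraries labelled CDH11+/+. The labels did not overlap, and the fold change was 0.58 ± 0.18 (adjusted p = 0.185, edgeR). In the authors' normalized values limma gave 1.02 (adjusted p = 0.149).

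Adam8, found on myeloid cells, had 73.4, 71.6, 75.8 and 80.8 CPM in libraries labelled CDH11-/-, against 76.8, 55.1, 55.9 and 64.8 CPM in libraries labelled CDH11+/+ (0.26 ± 0.10, adjusted p = 0.276, edgeR). CDH11+/+ replicate 1 lay among the CDH11-/- values, and without it the fold change was 0.37 ± 0.08 (adjusted p = 0.0191). Adam11, Adam22 and Adam23 lack a working catalytic site and act in adhesion. Adam11 had 32.0, 38.1, 40.6 and 32.4 CPM in libraries labelled CDH11-/-, against 33.6, 53.5, 50 and 44.1 CPM in libraries labelled CDH11+/+ (−0.34 ± 0.14, adjusted p = 0.307). It was the lower member with an unadjusted p under 0.05 beside Mmp7, and without CDH11+/+ replicate 1 it passed (−0.44 ± 0.10, adjusted p = 0.0272). Adam22 (0.23 ± 0.14) and Adam23 (0.21 ± 0.25) did not pass, nor did Adam12 (0.26 ± 0.25), meltrin alpha, and Adam4 (0.13 ± 0.40). Adam5, Adam21, Adam28 and Adam32 had 18 to 74 counts in total and were not tested.

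Of the 14 Adamts genes tested, none passed in edgeR or DESeq2 and 1 passed in limma-voom. In edgeR, 5 had an unadjusted p under 0.05 (35.7%), against 14.4% of all genes tested. A log2 fold change above 0 was found for 10, with a median of 0.24. Adamts2, Adamts3 and Adamts14 remove the amino-terminal propeptide of fibrillar procollagens. All of them had values above 0, with a median of 0.40. Adamts2 had 40.4, 34.7, 41.9 and 38.2 CPM in libraries labelled CDH11-/-, against 37.4, 24.6, 24.6 and 31.2 CPM in libraries labelled CDH11+/+. CDH11+/+ replicate 1 lay above the lowest CDH11-/- library. The fold change was 0.40 ± 0.13 (adjusted p = 0.202, edgeR), and it passed without CDH11+/+ replicate 1 (0.54 ± 0.11, adjusted p = 0.0154) and in limma-voom (0.0374). Adamts3 had 0.48 ± 0.36 and Adamts14 0.24 ± 0.24.

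Adamts7 and Adamts12, which cleave cartilage oligomeric matrix protein, had values close to each other. Adamts7 had 10.8, 11.2, 12.2 and 14.01 CPM in libraries labelled CDH11-/-, against 8.58, 7.67, 10.4 and 10.6 CPM in libraries labelled CDH11+/+, with no overlap (0.37 ± 0.14, adjusted p = 0.255, edgeR). Its exons share 122 bases with Tbc1d2b. Adamts12 had 8.60, 7.50, 9.55 and 8.79 CPM in libraries labelled CDH11-/-, against 8.67, 5.47, 4.83 and 7.02 CPM in libraries labelled CDH11+/+, with CDH11+/+ replicate 1 among the CDH11-/- values (0.42 ± 0.18, adjusted p = 0.321). Adamts6, which is linked to fibrillin microfibrils, had 11.8, 11.8, 11.6 and 15.9 CPM in libraries labelled CDH11-/-, against 11.2, 10.8, 7.67 and 9.95 CPM in libraries labelled CDH11+/+. The labels did not overlap, with the lowest CDH11-/- library at 11.6 and the highest CDH11+/+ library at 11.2 CPM (0.37 ± 0.15, adjusted p = 0.302). Its relative Adamts10 had 0.14 ± 0.09. Adamts17, of the same group, had 41 counts in libraries labelled CDH11-/- and 15 in libraries labelled CDH11+/+ and was not tested.

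The proteoglycan-cleaving Adamts genes had values on both sides of 0, with 3 of 6 tested above 0 and a median of 0.02. Adamts1, which cleaves versican and was the most abundant proteinase, had 232, 197, 206 and 196 CPM in libraries labelled CDH11-/-, against 219, 217, 232 and 218 CPM in libraries labelled CDH11+/+ (−0.09 ± 0.07, adjusted p = 0.576, edgeR). Adamts15 had 12.6, 14.7, 17.5 and 17.5 CPM in libraries labelled CDH11-/-, against 12.3, 10.2, 14.2 and 11.95 CPM in libraries labelled CDH11+/+ (0.36 ± 0.14, adjusted p = 0.266). The labels overlapped in both genes. Adamts5, a main aggrecanase, had 0.25 ± 0.12 (adjusted p = 0.403), Adamts4 −0.14 ± 0.17, Adamts8 −0.21 ± 0.31 and Adamts9 0.13 ± 0.09. Adamts16, outside these groups, had −0.19 ± 0.14, and Adamts13, Adamts18 and Adamts20 had 13 to 32 counts in total and were not tested.

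The number of members called was highest without CDH11+/+ replicate 1, among the fits with 1 library left out. Without it, 9 of 44 tested members were called (20.5%), 7 higher and 2 lower, while 993 of all 16065 genes tested were called (6.18%), 492 higher (3.06%) and 501 lower (3.12%). The higher members were Mmp2, Mmp9, Mmp14, Adam8, Adam19, Adamts2 and Timp2, and the lower ones Mmp7 and Adam11. The median log2 fold change of the members was then 0.33. Without reaching the threshold, Mmp3 stood at 0.52 (adjusted p = 0.141, edgeR), Mmp19 at 0.57 (0.0545), Adam12 at 0.49 (0.233) and Adam4 at 0.44 (0.588) without this library. This library had fewer counts than any other, 10675309, and its marker sums for proximal tubule cells lay below those of the other CDH11+/+ libraries. Of 11 fibroblast markers 10 had a log2 fold change above 0 with all libraries, with a median of 0.35, none called and sums of 1802 to 2580 CPM in libraries labelled CDH11-/- and 1541 to 2258 CPM in libraries labelled CDH11+/+. The value of 2258 CPM was that of CDH11+/+ replicate 1, and the other 3 CDH11+/+ libraries lay between 1541 and 1669 CPM, below all CDH11-/- libraries. The part of these cells in the higher members was not tested.

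**Figure D5:**
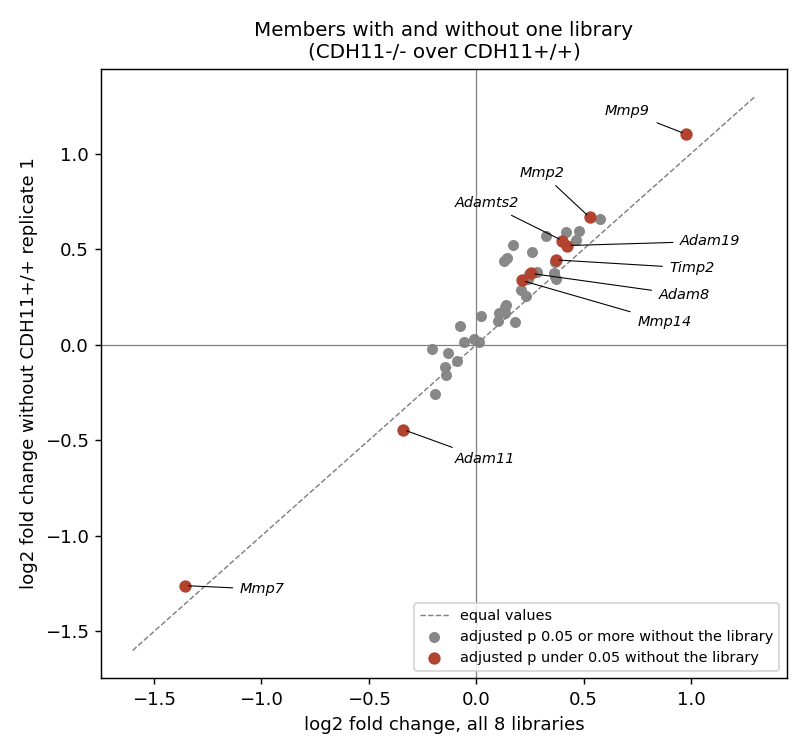
Log2 fold change of each member with all 8 libraries (x axis) against that without CDH11+/+ replicate 1 (y axis), with the line of equal values. The 9 labelled members had an adjusted p under 0.05 without that library, and most points above 0 lie above the line.

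Partners and regulators of these enzymes were read from a list of 45 genes, among them precursor-activating convertases, plasminogen activators and their inhibitors, Adamts-like proteins and clearance receptors. Of 41 tested, 23 had a log2 fold change above 0 and 18 below, with a median of 0.10, and 1 was called (2.44%), against 0.725% of all genes tested. The called gene was Pcsk5, a proprotein convertase, which had 23.7, 26.7, 24.3 and 25.1 CPM in libraries labelled CDH11-/-, against 33.1, 37.99, 30.9 and 34.1 CPM in libraries labelled CDH11+/+. The labels did not overlap and the gene fell by 0.45 ± 0.08 on the log2 scale (adjusted p = 0.0335, edgeR). The call was lost in 8 of the 17 alternatives, with adjusted p up to 0.123: in both treatments of the authors' normalized values, without any 1 of the CDH11-/- libraries, and without CDH11+/+ replicate 2 or 4.

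Pcsk6, a related convertase, had 16.7, 19.9, 13.2 and 10.7 CPM in libraries labelled CDH11-/-, against 7.10, 8.36, 11.3 and 9.56 CPM in libraries labelled CDH11+/+ (0.73 ± 0.20, adjusted p = 0.142, edgeR). CDH11-/- replicate 4 lay below CDH11+/+ replicate 3. Pcsk6 passed in DESeq2 (adjusted p = 0.0265) and in none of the other 16 alternatives. Serpine2, an inhibitor of serine proteinases, had 247, 210.2, 230.5 and 217 CPM in libraries labelled CDH11-/-, against 196, 161, 171 and 199 CPM in libraries labelled CDH11+/+. The labels did not overlap, and the fold change was 0.32 ± 0.08 (adjusted p = 0.114, edgeR). Serpine2 passed in DESeq2 (adjusted p = 0.0204), in limma-voom (0.0471) and in edgeR without CDH11+/+ replicate 1 (0.0301). In the other 14 alternatives it did not pass. Adamtsl4, an Adamts-like protein of fibrillin microfibrils, averaged 23.2 ± 1.90 CPM in libraries labelled CDH11-/- and 18.9 ± 1.40 CPM in libraries labelled CDH11+/+ (SD, n = 4 each; 0.30 ± 0.09, adjusted p = 0.175, edgeR).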

How the data were processed

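Total RNA of 8 kidneys was sequenced from directional libraries, per the labels' protocols. The authors deposited gene counts and normalized values (signal, counts divided by factors) for 42256 Ensembl identifiers. The submitters' processing notes name mm10, DRAGEN and DESeq2. For versions, annotation release and strand use in counting, nothing is given in the sources used here. All identifiers were matched to GENCODE M21 for names, positions and exon lengths.

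The deposited counts were tested in R 4.3.3 with edgeR 4.0.16 (TMM scaling, filterByExpr, robust quasi-likelihood fit, 4 against 4 libraries), with Benjamini-Hochberg adjustment over all 15852 genes tested and a threshold of 0.05. Genotype was the only term. Alternatives used DESeq2 1.42.0, limma 3.58.1 (also on log2 of the authors' value + 1), other scalings and filters, and each library left out. Tables and plots used Python 3.11.15, pandas 2.3.3 and matplotlib 3.10.9. Replicates are numbered in order of deposit. The common biological coefficient of variation was 13.5%. On simulated counts for this comparison (15911 genes), edgeR recovered 33 of 50 genes changed 1.5-fold, 50 of 50 changed 2-fold and 47 of 50 lowered to 0.25 times, with 14 false calls. The simulation gave every gene that common coefficient of variation and let no library stand apart. It therefore does not give the recovery for genes with a wider spread or with a deviating library.

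Described individually were called members, the 5 of smallest p in each family, the highest per length, the Timp genes, Mmp2, Mmp9, Mmp14, Adam10 and Adam17. Of the list of partners, called genes and the 4 of smallest p were described. Other members are named so that each is accounted for. Members and lists were chosen with earlier results of these data known. Nothing states whether the 8 kidneys share litters or extraction days. Promoters came from RefSeq (GRCm38.p6).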

Additional observations from a re-analysis of the deposited data

Results flagged for a closer look

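In groups of 4 libraries, 1 library stood far from the other 3 in 7 of 86 groups examined, where chance alone gives about 1 in 20, or 4.3. Mmp12, the macrophage elastase, had 77.0 CPM in CDH11-/- replicate 4, against 27.0 to 34.6 CPM in the other libraries of that label. In the same library Adamts6 had 15.9 CPM, with the others of its label between 11.6 and 11.8 CPM.

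CDH11+/+ replicate 1 stood apart for 3 members. Timp1 had 58.2 CPM there, with the others of that label at 29.5 to 29.9 CPM. Adamts5 had 71.8 CPM, with the others at 52.4 to 55.5 CPM, and Timp2 had 213 CPM, with the others at 178 to 184 CPM. Timp2 also had a low CDH11-/- library, replicate 2, with 216 CPM beside 249.9 to 257 CPM. Adamts1 had 232 CPM in CDH11+/+ replicate 3, with the others of that label at 217 to 219 CPM.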

How the results depend on the processing

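Of the 43 tested members, 30 kept their direction in all 17 alternatives, and Adamts3 did in the 12 that could be run for it. On the authors' normalized values, limma with a pseudocount of 1 and edgeR with the authors' factors as offsets gave −0.0342 and −0.0345 for Mmp11, and 0.0223 and 0.0178 for Mmp25. Adam10 turned to 0.0374 with library size alone, 0.00402 without a filter on low counts, and 0.00876 and 0.00819 in those treatments of the authors' values. The cause was not tested. With 1 library left out, log2 fold changes ranged from −0.000416 to 0.521 for Mmp3, −0.0737 to 0.153 for Mmp11, −0.499 to 0.1001 for Mmp12, −0.00433 to 0.198 for Mmp28, −0.166 to 0.439 for Adam4, −0.0406 to 0.0298 for Adam10, −0.104 to 0.0156 for Adam17, −0.0320 to 0.338 for Adam23, −0.405 to 0.0226 for Adamts8, −0.0518 to 0.456 for Timp1 and −0.0170 to 0.0564 for Timp3.

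Counts of calls depended on the test. Beside 115 of all genes, DESeq2 called 515, limma-voom 685, limma on the authors' values 54 and the offsets 65, and leaving out 1 library gave 27 (without CDH11+/+ replicate 4) to 993 (without CDH11+/+ replicate 1). Beside 1 member, the fit without a filter called 2, DESeq2 4, limma-voom 5 and limma on the authors' values 0, with 9 at an unadjusted p under 0.05. Leaving out 1 library gave 0 to 9 members. The count was 0 without CDH11-/- replicate 1 or 3 or CDH11+/+ replicate 2 or 4, with 9 to 13 members at an unadjusted p under 0.05. Of the partner list, DESeq2 and limma-voom called 3 each and both treatments of the authors' values 0, with 7 at an unadjusted p under 0.05, and leaving out 1 library gave 0 to 7. Shares over all genes are not given here for the fit without a filter or for these unadjusted counts. In the main edgeR fit, 14.4% of all genes tested had an unadjusted p under 0.05, so these counts are not read as results. Counting symbols with a letter, or asking for 100 counts in total, left 1 member called.

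The 15 members below the filter on low counts had 13 to 91 counts each, and none of them was called without that filter. No paired analysis was possible because the labels give no replicate numbers shared between the genotypes.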

Other observations

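B and plasma cell markers had the median log2 fold change farthest from 0 among the 10 marker lists, 0.91. Their summed level was 201 to 258 CPM in libraries labelled CDH11-/- and 10.1 to 105 CPM in those labelled CDH11+/+, and all 4 tested had a log2 fold change above 0, with none called. Jchain held most of that sum, with 219.8 ± 28.4 CPM in libraries labelled CDH11-/- and 36.7 ± 42.7 CPM in libraries labelled CDH11+/+ (SD, n = 4 each). Mzb1 had 6.34 ± 0.75 CPM (CDH11-/-) and 2.79 ± 1.71 CPM (CDH11+/+), with a log2 fold change of 1.15 ± 0.34 (adjusted p = 0.166, edgeR). Jchain and Mzb1 did not overlap between the labels, while Cd79a, Cd79b and Ms4a1 did. The 9 endothelial markers all lay above 0, with sums of 497 to 548 CPM in libraries labelled CDH11-/- and 356 to 473 CPM in those labelled CDH11+/+. Podocyte markers summed to 470.0 to 577 CPM in libraries labelled CDH11-/- and 338 to 480.4 CPM in those labelled CDH11+/+, and urothelial markers to 9.09 to 17.3 CPM (CDH11-/-) and 6.25 to 14.9 CPM (CDH11+/+). Markers of the thick ascending limb, distal tubule and collecting duct summed to 2942 to 4584 CPM in libraries labelled CDH11-/- and 2988 to 5317 CPM in those labelled CDH11+/+. Their part in the members' values was not tested.

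Plg, the plasminogen precursor that is made mainly in liver, had 17.8 CPM in CDH11-/- replicate 2 and 0.134 to 0.792 CPM in the other libraries of that label, against 0 to 0.475 CPM in libraries labelled CDH11+/+. It was seen after the values of the partner list were read.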
